A study of Brassica rapa with 6 samples.

Results

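Among the small RNAs listed for Chinese cabbage (Brassica rapa) were entries that carry the names of 5 plant miRNA numbers, miR6300, miR8175, miR6478, miR5368 and miR6173, names that have been discussed as pieces of transfer or ribosomal RNA. Members were taken by a rule on the name alone, and the names were chosen with earlier results of these data known. They made up 54 of 1069 rows of the deposited table and 52 of its 1011 distinct sequences. Several sequences carried the same value in all 6 libraries, and with these counted once the members came to 43 distinct value profiles of 942 in the table. By name there were 19 distinct sequences of miR6300 in 10 profiles, 11 of miR8175, 16 of miR6478, 4 of miR5368 and 2 of miR6173. The libraries were 3 from petiole, the thick stalk that carries the blade, and 3 from leaf, all from wild type plants grown in a greenhouse, and the design compares small RNA between the 2 tissues. The labels used here give no cultivar, age or treatment. Nothing in them ties a library to its own plant, and the p-values therefore rest on a spread between libraries that may be technical. In such bulk tissue, fewer cells of a type and less of an RNA per cell cannot be told apart, and a small RNA table holds no messenger RNA markers against which the tissue labels could be checked. The normalized count summed to between 428796 and 448448 in the petiole libraries and between 772667 and 803819 in the leaf libraries.

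A transfer RNA folds so that its 5′ end pairs with the stretch near its 3′ end, and an enzyme adds the letters CCA to that 3′ end. When it is cut in the cell or broken during extraction, its pieces can be cloned along with miRNAs, which are instead cut from hairpin precursors by a Dicer enzyme and in plants are mostly of 1 narrow length class. Ribosomal RNA of the cytoplasm and of plastids gives such pieces too, and some plant miRNA names have been questioned on these grounds. The labels' protocol states that reads of ribosomal and transfer RNA were removed before counting, so the entries below are what was listed after that step.

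The sequences are shown first because their overlaps carry much of what follows. The forms below begin at the same base and show how the miR6300 series grows at its 3′ end only, and the capitals mark the seed, bases 2 to 8, which pairs with a target in a true miRNA.
gma-miR6300: gTCGTTGTagtatagtgg
gma-miR6300_R+1: gTCGTTGTagtatagtggt
gma-miR6300_R+7_1: gTCGTTGTagtatagtggtaagtat
The inner entry that differed most between the tissues is shown next, and here too the capitals mark bases 2 to 8.
ath-MIR8175-p5_2ss14TC18AC: gTGGTAAGtattcccgcct

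All 12 sequences of the series that starts with gma-miR6300 shared the seed TCGTTGT, which no other sequence of the table had. Despite their different names, the exact forms of this series and the inner entries named MIR6300-p5, MIR6300-p3, MIR8175-p5 and MIR8175-p3 joined, through exact end overlaps of at least 8 bases, into 1 run of 36 bases, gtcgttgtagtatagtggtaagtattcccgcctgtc. In this run gma-miR6300 covered bases 1 to 18, gma-miR6300_R+7_1 bases 1 to 25 and ath-MIR8175-p5_2ss14TC18AC bases 15 to 33. The longest run shared between the names miR6300 and miR8175 was 21 bases, in gma-MIR6300-p3_1 and ath-MIR8175-p3_2ss17TC21AC. Outside these names, 0 of the other 959 distinct sequences shared 14 or more bases with any member in either sense.

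**Figure D1:**
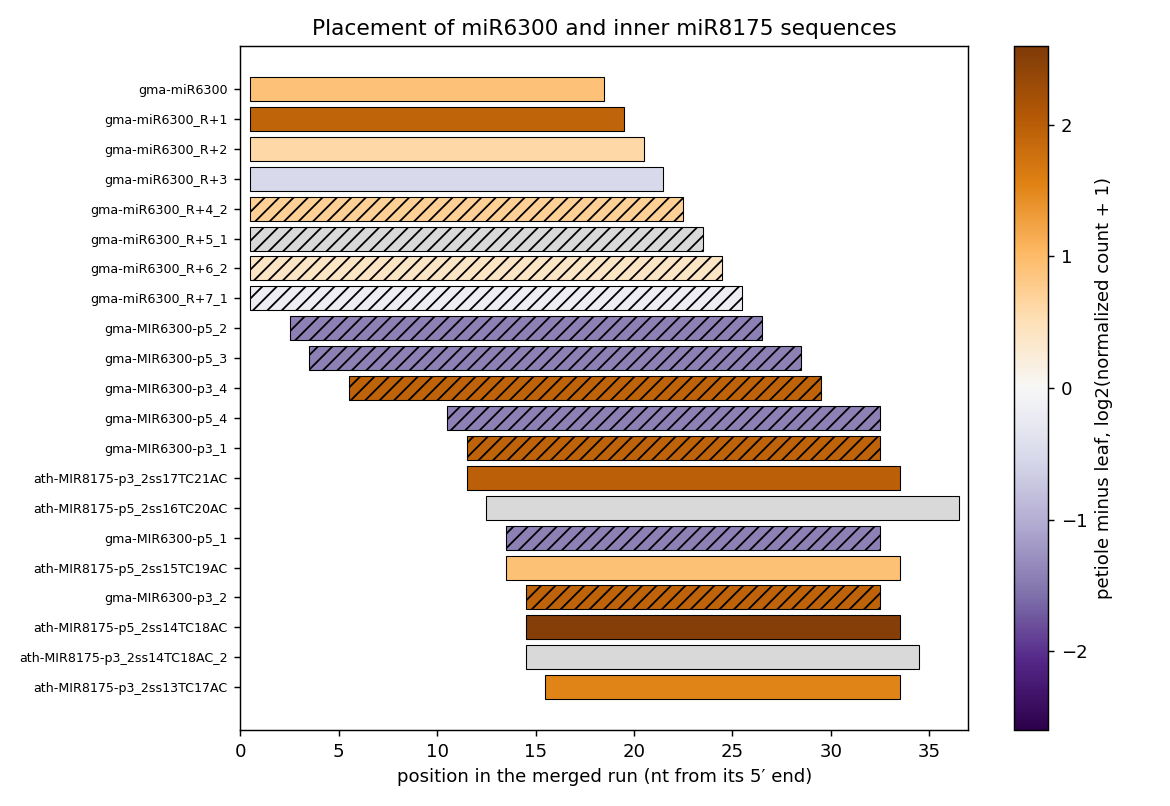
Position of each exact miR6300 and inner miR8175 sequence in the merged run of 36 bases (x axis, nt from its 5′ end; 1 bar per sequence), coloured by the log2 difference, petiole minus leaf. Grey bars were not tested, and hatched bars are sequences listed with the same values as another, so their colours cannot be told apart; the darkest brown bar is ath-MIR8175-p5_2ss14TC18AC.

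The remaining miR8175 entries had different letters and shared their 3′ end. They are shown because of that end, with the capitals marking the terminal CCA.
ath-miR8175_L-2: tccccggcaacggcgCCA
ath-miR8175_L+1: cgatccccggcaacggcgCCA
ath-miR8175_L+4: gttcgatccccggcaacggcgCCA

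All 5 members that ended in CCA were miR8175 forms, out of 11 sequences of that name, and none of the miR6300, miR6478, miR5368 or miR6173 entries did. The ending was not particular to them, since 35 of all 1011 sequences (3.46%) ended in these letters, among them forms of known miRNAs such as bra-miR160a-5p. The first 7 bases of gma-miR6300 paired at 7 of 7 positions with the 7 bases that precede the last 4 of ath-miR8175_L-2, through 6 Watson-Crick pairs and 1 G-U pair (G-T in the letters used here). This is the arrangement of an acceptor stem. Of all 1011 sequences, 12 (1.19%) began with bases that paired in full with that stretch, and all 12 belonged to the gma-miR6300 series. These 12 begin with the same bases, so they stand for 1 start and give no background rate. The pairing came from a search that took the best start of each name against the CCA ends, so it is a description only. Full pairing also occurred elsewhere, because cas-miR5139_L-1, which ends in CCA and is described below, paired at 7 of 7 positions with the start of gma-MIR5368-p3_1ss6AG. The features of a transfer RNA seen here were the CCA end of miR8175 entries and the pairing of bases near it with the start of gma-miR6300. The miR6300 entries had no CCA end themselves, so lacking it does not set the miR6478, miR5368 or miR6173 entries apart. A piece cut from elsewhere than the 3′ end would not carry these letters. No transfer or ribosomal RNA sequence was used here, and the origin of the reads was not tested.

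The main miR6478 entries began alike and again grew at the 3′ end, with bases 2 to 8 in capitals.
ptc-miR6478_R-1: cCGACCTTagctcagttggt
ptc-miR6478_1ss21GA: cCGACCTTagctcagttggta
ptc-miR6478_R+4_1ss21GA: cCGACCTTagctcagttggtagagc
ptc-miR6478_2ss6CT21GA: cCGACTTTagctcagttggta
Of the 16 sequences, 9 shared the seed CGACCTT and 4 carried C6T (positions from 1 at the 5′ end of ptc-miR6478_R+4_1ss21GA, whose base is given first), which changes it to CGACTTT. No member of another name shared more than 5 bases in a row with them.

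The miR5368 and miR6173 entries are shown because they gave the widest gap between the tissues, with bases 2 to 8 in capitals.
gma-MIR5368-p3_1ss9CA: aCTCTGGAagagctagaattct
gma-MIR5368-p5_1ss1TC: cCCTGGGAttggctttgggc
hbr-miR6173_L+1: tAGCCGTAaacgatggatact
hbr-MIR6173-p5_1ss1AT: tAGCCGTAaacgatggat
Although gma-MIR5368-p3_1ss9CA and gma-MIR5368-p5_1ss1TC are named for the arms of 1 precursor, the longest run in which any of the 4 miR5368 sequences was the reverse complement of another was 5 bases. The 3 sequences gma-MIR5368-p5_1ss7AG, gma-MIR5368-p3_1ss6AG and gma-MIR5368-p3_1ss9CA, labelled for both arms, instead overlapped end to end in the same sense and joined into a run of 37 bases. The 18 nt hbr-MIR6173-p5_1ss1AT is the start of hbr-miR6173_L+1. None of these entries ended in CCA, and their likeness to ribosomal RNA, which the choice of names implies, was not checked.

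Short lengths were a minority of the members but more frequent than in the whole table. Sequences of 18 or 19 nt were 19.2% of the members and 2.27% of all distinct sequences. Lengths ran from 18 to 25 nt with a median of 21 nt, against a median of 23 nt in the whole table. Of only 10 sequences of 18 nt in the table, 5 were members, and of 23 sequences of 18 or 19 nt, 10 were. The median G+C content was 48.9% in members and 38.9% in all distinct sequences. Of the members, 13.5% began with T (U in the RNA), a frequent first base of plant miRNAs, against 25.5% of all. The table includes 549 predicted sequences, so these contrasts are not with known miRNAs alone.

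The shares of the library that the members took together overlapped between the tissues, with different names behind them. They made up 0.416%, 0.419% and 0.431% of the summed count in the petiole libraries and 0.442%, 0.371% and 0.396% in the leaf libraries, and the tissues overlapped. Equal-valued members were counted once here, while the total took in every distinct sequence. With every row counted, repeated rows and equal-valued sequences alike, the tissues no longer overlapped. The shares were then 0.442%, 0.450% and 0.463% in petiole and 0.421%, 0.356% and 0.376% in leaf. On the deposited scale the members summed to 1843 ± 40.7 in petiole and 3182 ± 282 in leaf. In petiole, miR8175 held 0.206 ± 0.00736% of the library, miR6478 0.153 ± 0.00663% and miR6300 0.0614 ± 0.00616% (mean ± SD, n = 3). In leaf, these shares were 0.0650 ± 0.00297% for miR8175, 0.0928 ± 0.0140% for miR6478 and 0.0238 ± 0.00152% for miR6300. For each of these 3 names the petiole libraries lay above the leaf libraries, on a share that sets all library totals equal. The reverse held for miR5368, with 0.00127 ± 0.00114% in petiole and 0.205 ± 0.0185% in leaf, and for miR6173, listed at 0 in petiole and at 0.0166 ± 0.00358% in leaf.

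**Figure D2:**
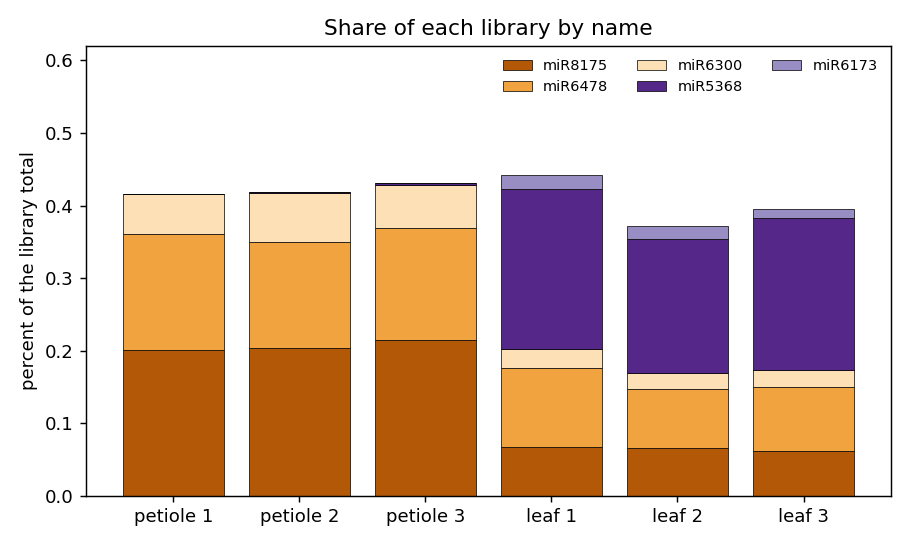
Percent of each library's summed normalized count (y axis) taken by members of each name, 1 bar per library. Equal-valued members are counted once, and the total is over every distinct sequence. The 3 petiole bars are almost filled by miR8175, miR6478 and miR6300, while miR5368 takes between 0.184% and 0.220% of the leaf libraries.

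Differences were tested on the scale the authors deposited, as log2(normalized count + 1), petiole minus leaf, with limma over all 601 distinct sequences with a mean of at least 5, at a Benjamini-Hochberg adjusted p under 0.05. Of the 43 member profiles, 30 passed this filter. Of these 30, 8 were higher and 7 lower in petiole and 15 did not pass, which is 26.7% and 23.3%. Of all tested sequences 21.3% were higher and 28.3% lower, 49.6% in either direction, and with equal-valued sequences counted once 21.4% and 28.4%, so the members' shares lie near the background. By name, 3 of 9 tested miR6300 profiles were higher and 1 lower, 5 of 7 miR8175 profiles higher and 1 lower, 0 of 10 miR6478 profiles higher and 1 lower, and both tested profiles of miR5368 and of miR6173 lower. Members that passed the filter through 1 tissue were favoured by it to differ. These were gma-MIR5368-p5_1ss1TC, hbr-miR6173_L+1 and hbr-MIR6173-p5_1ss1AT, listed at 0 in all petiole libraries. The leaf mean was under 5 in gma-MIR6300-p3_2, ath-MIR8175-p5_2ss15TC19AC and ptc-miR6478_R-1_1ss6CT. The last of these overlapped between the tissues and did not pass (limma adjusted p = 0.43). The calls among these members support nothing by their number. The 3 petiole values lay above the 3 leaf values in 11 members and below them in 9, against 28.5% and 31.3% of all tested sequences. The median log2 difference was 0.00014 in members and 0.18 in all tested sequences. The scale of the libraries sets much of this balance. With every library brought to the same total, the median difference of all sequences moved from 0.18 to 0.97, and 19 members were called higher and 4 lower, against 53.4% higher and 17.8% lower of all tested (71.2% in either direction). After quantile normalization, which gives all libraries 1 distribution, 10 members were called higher and 8 lower, against 23% and 24.1% of all tested (47.1% in either direction). With each library divided by its step of 1 read, 11 members were called higher and 5 lower, against 25.8% and 25.1% of all tested (50.9% in either direction). In all, 5 higher and 4 lower calls were made in the same direction under all of these scalings. The same count was not taken over all tested sequences, so the number is no result about the members. Each member named below as higher or lower is given with whether it is among these 9 calls. For the 3 members at 0 in petiole, a call under every scaling follows from the filter and is no sign of stability. The same call in gma-MIR6300-p3_2, which passed the filter through petiole, is no sign of stability either.

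**Figure D3:**
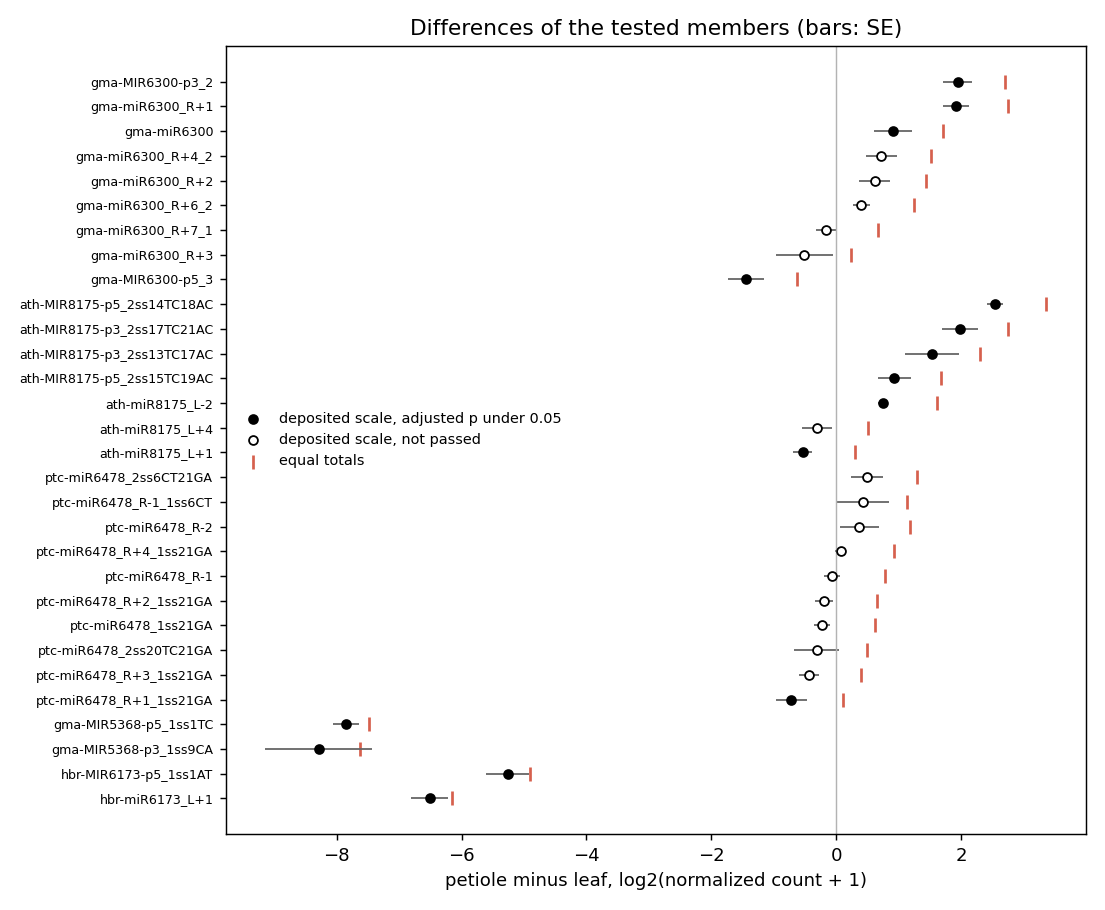
Petiole minus leaf difference of the 30 tested members (x axis, log2 of normalized count + 1), with SE from limma as bars; filled points had an adjusted p under 0.05, open points did not, and red ticks give the difference with equal library totals. The 4 miR5368 and miR6173 members lie below -5 on the deposited scale, and most red ticks stand to the right of their points.

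The 4 tested members named miR5368 and miR6173 were lower in petiole and are counted among the 9 calls, but only gma-MIR5368-p3_1ss9CA had any petiole value, and the other 3 are given as a description. The entry gma-MIR5368-p3_1ss9CA had normalized counts of 0, 7.19 and 9.49 in petiole and 1471, 1277 and 1392 in leaf. Petiole replicate 1 was listed at 0, and with the step of the low values taken as 1 read the other two petiole values stood for 7.5 and 10.5 reads. The log2 difference was -8.29 ± 0.86 (SE; limma adjusted p = 0.00024, n = 3 per tissue), and over the omission of each library it lay between -8.91 and -7.22. Its named partner gma-MIR5368-p5_1ss1TC was listed at 0 in all petiole libraries and at 271, 202 and 221 in leaf (log2 difference -7.85 ± 0.21). In leaf the first entry exceeded the second by 5.43, 6.33 and 6.29 times, a ratio that the scale of the libraries does not touch. Where petiole is listed at 0, the fitted difference depends on the added 1. With 10 added instead, it was -4.58 for gma-MIR5368-p5_1ss1TC.

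The miR6173 entries repeated this pattern at lower counts. In petiole hbr-miR6173_L+1 was listed at 0 in every library, and in leaf it had 124, 83.4 and 71.0 (-6.51 ± 0.30). Its shorter form hbr-MIR6173-p5_1ss1AT was also listed at 0 in petiole, with 34.8, 52.6 and 28.6 in leaf (-5.26 ± 0.35). The longer form was the more abundant in each leaf library, by 3.57, 1.58 and 2.48 times. Leaf libraries thus varied more in the ratio of the 2 miR6173 forms than in that of the 2 miR5368 forms. By the step of 1 read, hbr-MIR6173-p5_1ss1AT stood for 27 to 50.5 reads in leaf and gma-MIR5368-p5_1ss1TC for 193.5 to 261. Whether the wider spread exceeds that of counting few reads was not tested. The remaining miR5368 sequences, gma-MIR5368-p5_1ss7AG and gma-MIR5368-p3_1ss6AG, were listed at 0 in petiole and reached at most 2.59 and 5.82 in leaf, below the filter.

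**Figure D4:**
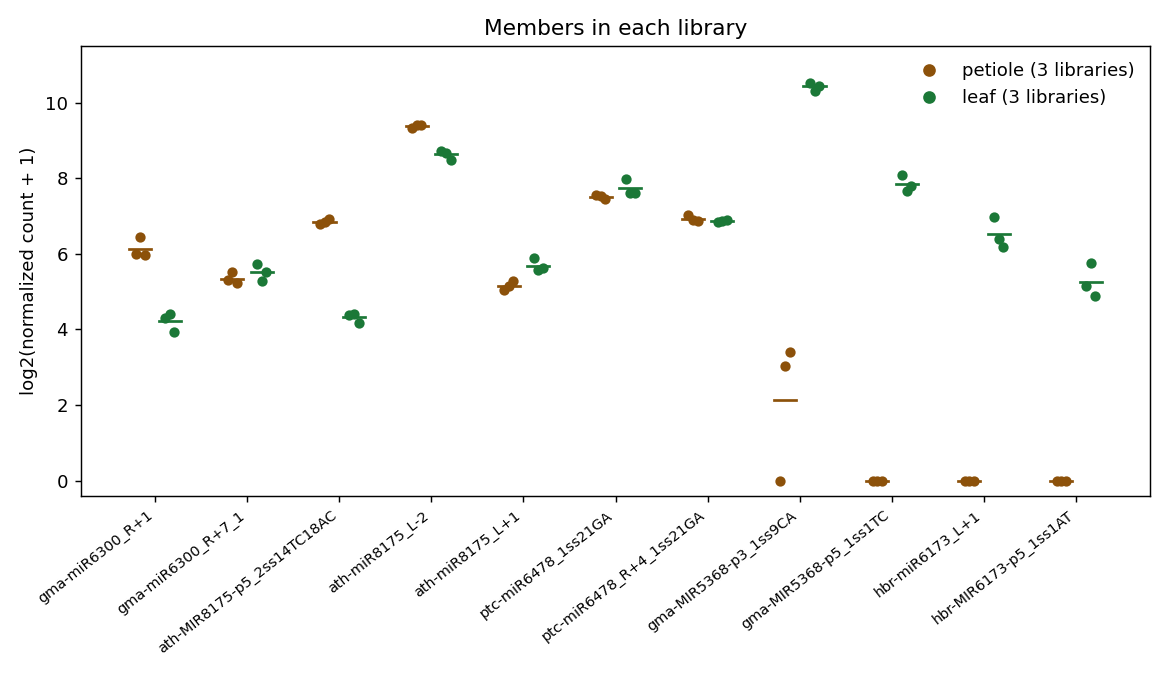
Normalized counts of 11 members in each library (y axis, log2 of normalized count + 1; 1 point per library, lines at the mean), with petiole to the left of leaf. Petiole values of gma-MIR5368-p5_1ss1TC and both miR6173 entries lie at 0, and ath-MIR8175-p5_2ss14TC18AC lies above in petiole without overlap.

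The inner entries that end at base 33 of the merged run were higher in petiole. The most abundant, ath-MIR8175-p5_2ss14TC18AC, had 110, 113 and 121 in petiole and 19.7, 20.3 and 16.9 in leaf, a 6.03-fold difference of the means. Its tissues were far apart, with a log2 difference of 2.53 ± 0.13 (adjusted p = 9.1e-06) that ranged from 2.46 to 2.58 when each library was left out. The longer ath-MIR8175-p3_2ss17TC21AC had 18.9, 26.9 and 24.4 in petiole and 3.63, 6.25 and 5.82 in leaf (1.98 ± 0.29, adjusted p = 0.0013). Both are among the 9 calls held in every scaling. The forms ath-MIR8175-p3_2ss13TC17AC (1.54 ± 0.43, adjusted p = 0.026) and ath-MIR8175-p5_2ss15TC19AC (0.93 ± 0.27, adjusted p = 0.028) were also called higher, though not after quantile normalization. The call of ath-MIR8175-p3_2ss13TC17AC was lost without petiole replicate 1 (adjusted p = 0.0753), without petiole replicate 3 (0.0919) and without leaf replicate 2 (0.0547). That of ath-MIR8175-p5_2ss15TC19AC was lost without any 1 library other than leaf replicate 2, with adjusted p between 0.0563 and 0.0768, and with no filter (0.0526). Together the 4 forms of this series summed to 166 ± 11.8 in petiole and 34.8 ± 4.27 in leaf (SD, n = 3), or 0.0380 ± 0.00317% and 0.00441 ± 0.000455% of the library.

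The inner entries named MIR6300, which end between bases 26 and 32, were listed in a way that hides which sequence was counted. The sequences gma-MIR6300-p3_1, gma-MIR6300-p3_2 and gma-MIR6300-p3_4 had the same values, 17.5, 20.1 and 19.4 in petiole and 4.15, 4.17 and 4.24 in leaf. Their difference was 1.95 ± 0.23 (adjusted p = 0.00049) and was called in every scaling. Their leaf mean was below the minimum of the filter, so that is no sign of stability. The 4 sequences gma-MIR6300-p5_1 to gma-MIR6300-p5_4, which overlap them in the merged run, had 8.98, 9.59 and 12.2 in petiole and 34.2, 36.5 and 20.1 in leaf. They were called lower (-1.44 ± 0.29, adjusted p = 0.0063), and with equal totals the difference was -0.64 and did not pass. Opposite directions were thus listed over the same bases, and because the values of several sequences are equal, they cannot be assigned to 1 of them. The placement map shows both sets as hatched bars.

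The 3′ forms of miR8175 were the most abundant members in petiole, and the form of 18 nt made up most of them. The short ath-miR8175_L-2 had 648, 679 and 676 in petiole and 422, 409 and 358 in leaf (0.75 ± 0.08, adjusted p = 0.00027). It was higher in petiole without overlap, and the call is among the 9 held in every scaling. The 21 nt ath-miR8175_L+1 had 31.7, 34.5 and 37.5 in petiole and 58.1, 46.4 and 48.2 in leaf (-0.54 ± 0.15, adjusted p = 0.024). It was lower on the deposited scale, but its difference was 0.29 and not past the threshold with equal totals. Its call was also lost without petiole replicate 1 (adjusted p = 0.0711), petiole replicate 2 (0.0601) or leaf replicate 1 (0.0624), and with values divided by the step of 1 read (0.0875). The 24 nt ath-miR8175_L+4 had 16.5, 17.3 and 16.3 in petiole and 15.6, 21.4 and 27.5 in leaf and did not pass (-0.31 ± 0.25, adjusted p = 0.33).

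Shares within the set of 3 exact CCA ends are free of the library scale. The 18 nt form made up 93.1%, 92.9% and 92.6% of them in petiole and 85.1%, 85.8% and 82.5% in leaf. The 21 nt form held 4.81 ± 0.302% in petiole and 10.9 ± 1.01% in leaf, and the 24 nt form 2.32 ± 0.0817% and 4.66 ± 1.61% (SD, n = 3). The tissues did not overlap in any of the 3 shares, but a rise in any share lowers the rest, so these are not separate results. Such separation was not counted over other series of the table. The mean length of these ends was 18.28 ± 0.0044 nt in petiole and 18.61 ± 0.095 nt in leaf.

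The gma-miR6300 series also had a shorter make-up in petiole, through its 19 nt form. That form, gma-miR6300_R+1, had 62.4, 86.3 and 61.9 in petiole and 18.7, 20.3 and 14.3 in leaf, a 3.95-fold difference of the means. Its log2 difference was 1.92 ± 0.21 (adjusted p = 0.0003), and it is the last of the 9 calls held in every scaling. At the other end, the 25 nt gma-miR6300_R+7_1, listed with the same values as gma-miR6300_R+7_2, had 38.8, 44.6 and 36.2 in petiole and 51.9, 38.04 and 45.0 in leaf. The tissues overlapped (-0.16 ± 0.17, adjusted p = 0.44), although with equal totals the form was called higher (0.67).

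The 18 nt gma-miR6300 had 19.9, 25.4 and 26.2 in petiole and 17.1, 13.03 and 7.94 in leaf and was called higher by a narrow margin (0.91 ± 0.31, adjusted p = 0.049). After quantile normalization its difference was 0.76 and did not pass. Without any 1 library other than leaf replicate 1 the call was lost, with adjusted p between 0.0774 and 0.139, and likewise with 0.5 added (0.0548), with no filter (0.0672) and without the trend (0.0521). The forms of 20, 22 and 24 nt, gma-miR6300_R+2, gma-miR6300_R+4_2 and gma-miR6300_R+6_2, had differences of 0.62, 0.72 and 0.40 with adjusted p of 0.079, 0.053 and 0.051. Leaving out petiole replicate 1 brought gma-miR6300_R+4_2 past the threshold (adjusted p = 0.0405), and leaving out leaf replicate 3 did so for gma-miR6300_R+6_2 (0.028). All 3 forms passed with equal totals and when values were divided by the step of 1 read. The forms of 22 and 24 nt are each listed with the values of a second sequence of that length. The 21 nt gma-miR6300_R+3 did not pass (-0.51 ± 0.46, adjusted p = 0.39).

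As a share of the series, the 19 nt form made up 28.8%, 31.2% and 27.5% in petiole and 11.4%, 14.2% and 9.31% in leaf. The 25 nt form made up 17.9%, 16.1% and 16.1% in petiole and 31.5%, 26.5% and 29.3% in leaf. Neither share overlapped between the tissues, while the shares of all other lengths did. The mean length of the series was 21.41 ± 0.11 nt in petiole and 22.42 ± 0.25 nt in leaf (SD, n = 3). These length shares were compared after the values of single forms had been seen. They depend on one another within the series, and separation of the tissues was not counted over other series of the table.

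**Figure D5:**
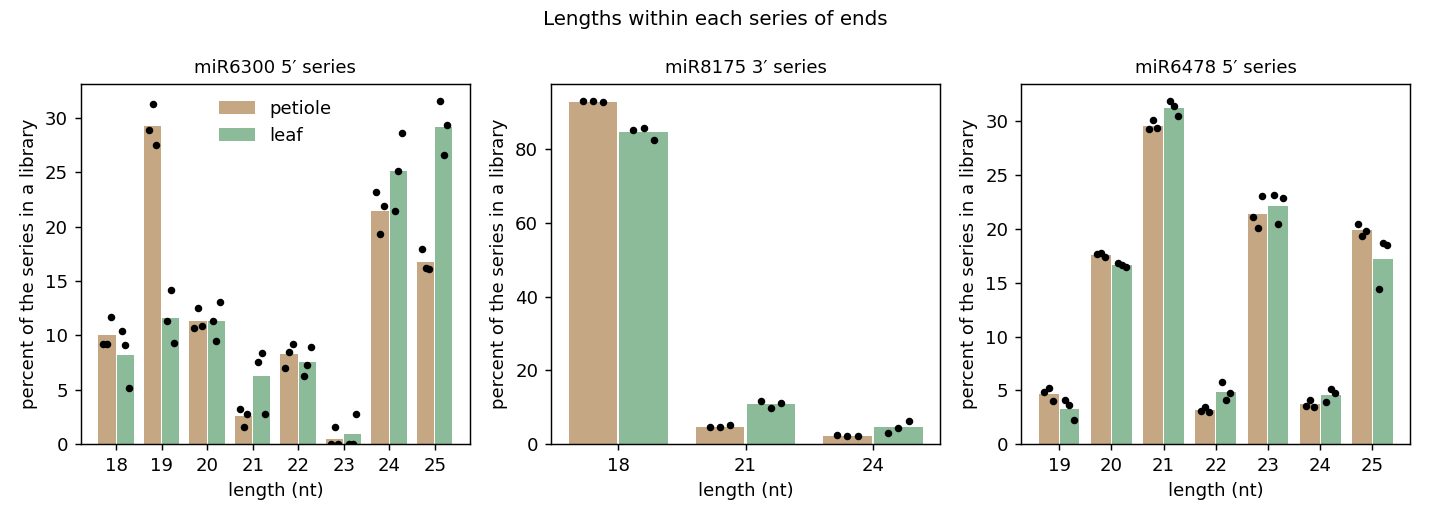
Percent of each series held by each length (x axis, nt), within a library (y axis), for the miR6300 forms with a common 5′ end, the miR8175 forms with a common CCA end and the miR6478 forms with a common 5′ end. Bars are means of 3 libraries and points single libraries; the petiole bar at 19 nt in miR6300 stands at 29.2% and the leaf bar at 11.6%.

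The miR6478 entries differed little between the tissues on the deposited scale. The most abundant, ptc-miR6478_1ss21GA, had 186, 183 and 173 in petiole and 252, 194 and 195 in leaf (-0.23 ± 0.12, adjusted p = 0.16). Petiole lay below leaf in every library, but the difference did not pass. The 25 nt ptc-miR6478_R+4_1ss21GA had 130, 118 and 117 in petiole and 114, 115 and 118 in leaf (0.07 ± 0.09, adjusted p = 0.53). Of 10 tested profiles 0 were higher and 1 was lower, ptc-miR6478_R+1_1ss21GA, with 19.9, 21.1 and 17.6 in petiole and 45.6, 25.5 and 30.2 in leaf (-0.72 ± 0.25, adjusted p = 0.0497). That call was lost without any 1 library other than leaf replicate 2 (adjusted p between 0.0882 and 0.134), with 0.5 added (0.0532), with no filter (0.0683), without the trend (0.0558) and with values divided by the step of 1 read (0.0955), and with equal totals the difference was 0.10. With equal totals 7 of the 10 were called higher and 0 lower, and after quantile normalization 4 higher and 2 lower, so no direction was common to the scalings.

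Among the miR6478 forms with a common start, some length shares separated the tissues by small margins. Here too the shares depend on one another and have no background from other series, so their number is no result. The 21 nt form made up 29.3%, 30.1% and 29.3% in petiole and 31.9%, 31.4% and 30.5% in leaf. The 22 nt form was lower in every petiole library, with 3.12%, 3.47% and 2.99% in petiole and 5.79%, 4.14% and 4.72% in leaf. The 20 nt form, with 17.6 ± 0.166% in petiole and 16.6 ± 0.173% in leaf, and the 25 nt form, with 19.8 ± 0.564% and 17.2 ± 2.41%, were higher in every petiole library, while the shares of 19, 23 and 24 nt overlapped. The mean length overlapped between the tissues. It was 22.10 ± 0.041 nt in petiole and 22.08 ± 0.11 nt in leaf. Forms with C6T were a small part at each length. At 21 nt they made up 9.22%, 9.91% and 12.6% in petiole and 7.44%, 6.06% and 6.12% in leaf, and at 25 nt 4.84%, 6.13% and 4.09% in petiole and 3.10%, 2.21% and 2.19% in leaf. The petiole libraries lay above the leaf libraries at both lengths, and at 20 nt, with 5.46 ± 1.05% and 3.81 ± 1.498%, they overlapped. At 23 nt they were listed at 0 in petiole replicates 1 and 2 and made up 2.28% in petiole replicate 3, against 1.68%, 0% and 1.78% in leaf, so the petiole mean was the lower one there. At 25 nt the C6T form had at most 7.67 normalized counts, and the reads could not be taken back from the table, so no counting interval is given for these shares.

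The 13 member profiles below the filter had at most 11.8 in any library, in ptc-miR6478_R-1_1ss7TG, which was listed in petiole replicate 3 only. Further miRNA numbers discussed as pieces of structural RNA in plants, miR894, miR1310, miR2910, miR2911, miR2914 to miR2916, miR5077, miR5083, miR5139 and miR6149, gave 1 entry, cas-miR5139_L-1.
cas-miR5139_L-1: aacctggctctgataCCA
Its 18 nt sequence, with the terminal CCA in capitals, is also listed as ppe-miR1511-3p_L+1R-4. It had 17.02, 38.4 and 29.4 in petiole and 33.7, 28.1 and 32.3 in leaf, overlapped between the tissues and did not pass (-0.21 ± 0.30, adjusted p = 0.57).

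The sequences whose values ran most like those of the members were mostly of other names. Likeness was the Pearson correlation of log2(normalized count + 1) over the 6 libraries, which share their scale and the contrast between tissues, and it is given as a description. For ath-MIR8175-p5_2ss14TC18AC the nearest were bra-miR390-5p (r = 0.9992), bra-MIR5718-p5 (0.9989) and bra-miR390-3p (0.9984). For ath-miR8175_L-2 they were bra-miR5718 (0.9939), bra-MIR824-p3 (0.9933) and bra-MIR5718-p5 (0.9932), and for gma-miR6300_R+1 bra-miR824 (0.9898), bra-MIR5726-p3_1ss20GA (0.9895) and the member ath-miR8175_L-2 (0.9875). For gma-MIR5368-p5_1ss1TC they were the predicted PC-5p-87410_54 (0.9999), bna-miR167d_R+1 (0.9996) and bra-miR167a (0.9996). For gma-MIR5368-p3_1ss9CA they were PC-5p-1072_1981 (0.9910), bra-miR391-3p (0.9902) and bra-miR158-5p (0.9888). Of 82 such neighbours of the tested members, with equal-valued sequences left out, 7 were members themselves. Members were 38 of the 601 tested sequences, so this count is no result about them.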

How the data were processed

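Small RNA was sequenced from 3 petiole and 3 leaf libraries. Per the labels' protocols, total RNA was taken up in Trizol, made into TruSeq small RNA libraries and sequenced on an Illumina HiSeq, and ACGT101-miR removed adapters, reads of low complexity, repeats and structural RNA (ribosomal and transfer RNA among it). No source used here names the aligner, genome build or miRBase release. The signal values are normalized counts that the authors deposited, per the file headers, and no source used here says how they were scaled. Low values lay on a step per library, taken as 1 read (0.945, 0.959 and 0.904 in petiole, 1.04, 1.04 and 1.06 in leaf), on which 68.9% to 75.5% of values under 60 reads were whole within 0.02 reads, and most others lay midway between steps, so counts were not recovered. By this step the petiole totals stood for 457195 to 474192 reads and the leaf totals for 729593 to 771262. Low members rest on few reads.

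Repeated sequences (58 rows, with equal values) were dropped. Values were tested as log2(value + 1), petiole minus leaf, with limma 3.58.1 (R 4.3.3, mean-variance trend) on 601 sequences with a mean of at least 5, with Benjamini-Hochberg adjustment over all of them. Sequence features were computed with Python 3.11.15 from the deposited letters, written with T for U. The fit was tested on simulated data. The rule for named entries took every member, every entry of a list of companion names and, for each tested member, the 3 nearest sequences by correlation, of which the text prints those of main members. Members and lists were chosen with earlier results of these data known, and length shares, C6T shares and merged runs were added after the values were seen. Related sequences differ by few bases, and reads may have been divided among them. Alternatives were the added constant, the filter, 3 other scalings, repeated rows, the trend, a replicate block and the omission of each library.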

Additional observations from a re-analysis of the deposited data

How the results depend on the processing

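Of 30 tested members, 15 were called on the deposited scale, 8 higher and 7 lower in petiole. With only sequences of a mean of at least 50, 4 of 8 members left in the fit were called, 2 higher and 2 lower. Of the called members, gma-MIR5368-p5_1ss1TC and gma-MIR5368-p3_1ss9CA reached that mean through leaf alone. Likewise, ath-MIR8175-p5_2ss14TC18AC reached it through petiole alone (means of 114.5 in petiole and 18.99 in leaf). This filter favoured their calls, so the count is no sign of stability. With equal totals 23 were called, 19 higher and 4 lower. With a replicate block 10 were called, 5 higher and 5 lower. Deviations of same-numbered libraries from their tissue means correlated at 0.0728, 0.0067 and 0.0076. Such deviations may be mostly counting noise, so these values cannot decide whether the numbers pair the samples. The 5 calls missing under the block were gma-miR6300, ptc-miR6478_R+1_1ss21GA, ath-MIR8175-p3_2ss13TC17AC, ath-miR8175_L+1 and ath-MIR8175-p5_2ss15TC19AC (adjusted p between 0.0584 and 0.0919). Omitting each library in turn gave 11 to 13 calls, 5 to 7 higher and 5 to 7 lower. For the filter of 50, the block and the omissions, shares over all tested sequences were not taken. Whether members lost calls more often than other sequences was therefore not tested. The members' mean share of the petiole libraries was 0.436% without predicted sequences in the total and 0.452% with all rows kept, against 0.422%. Keeping all rows also counts each equal-valued sequence. The leaf share moved by less than its SD, to 0.384% with all rows kept, and the tissues then did not overlap. The difference changed sign with equal totals in 10 members, all negative on the deposited scale: gma-miR6300_R+3 (0.24), gma-miR6300_R+7_1 (0.67), ptc-miR6478_2ss20TC21GA (0.48), ptc-miR6478_R+1_1ss21GA (0.10), ptc-miR6478_R+2_1ss21GA (0.65), ptc-miR6478_R-1 (0.78), ptc-miR6478_R+3_1ss21GA (0.39), ptc-miR6478_1ss21GA (0.62), ath-miR8175_L+1 (0.29) and ath-miR8175_L+4 (0.50). That setting raises petiole values by its construction. After quantile normalization 3 changed sign, ptc-miR6478_R+2_1ss21GA (0.57), ptc-miR6478_R-1 (0.52) and ptc-miR6478_1ss21GA (0.59). Divided by the step of 1 read, ptc-miR6478_R-1 turned to 0.0912, and over the omission of each library it ran from -0.14 to 0.0486 (without leaf replicate 1). Few reads limit what the low members can show.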
